A study of Rattus norvegicus with 10 samples.

Results

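The expression of 3 genes of the oxytocin and vasopressin system was followed in the fetal rat cortex, namely Oxt, Avp and Oxtr. They were named by Ensembl identifier and chromosome and not by a cut on their values, although earlier results of these data were known. All 3 were among the 26404 features listed in every file. Oxt (ENSRNOG00000021225) encodes the precursor of oxytocin and its carrier neurophysin. Avp (ENSRNOG00000021229) encodes the precursor of vasopressin, and Oxtr (ENSRNOG00000005806) encodes the oxytocin receptor. Each library was made from the cortex of the right hemisphere of 1 fetus of the Sprague Dawley strain, taken at embryonic day 21. In the oxytocin group (n = 5) each fetus came from a different dam given 100 mcg/kg oxytocin intravenously 24 h before, and in the saline group (n = 5) from a different dam given the same volume of saline. The replicate numbers used here follow the order of the accessions within each group and only name the libraries, so equal numbers in both groups mark no known pairing. The study concerned abnormal contraction of the uterus caused by oxytocin, and these genes bear on whether the exposed fetal cortex altered its own oxytocin system. The sex of the fetuses is not given in the labels. RNA was selected with oligo-dT from total RNA, so the counts are of polyadenylated transcripts.

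Oxytocin and vasopressin are closely related peptide hormones, each cut from a larger precursor that also carries a neurophysin. In the adult brain both precursors are made chiefly by large neurons of the hypothalamus, which send the peptides to the posterior pituitary and to other brain regions. The cerebral cortex is known mainly as a site of the receptor, a membrane protein that signals through G proteins of the Gq family and is expressed there during development.

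Oxt and Avp lie side by side, and the files show their shared layout. Coordinates are those of the files, for which the submitters' processing notes name the build Rnor_5.0. Oxt is listed on chromosome 3, plus strand, from 129604822 to 129605662, as 3 exonic intervals of 156, 202 and 176 bases. Avp is listed on chromosome 3, minus strand, from 129615610 to 129617588, as 3 exonic intervals of 152, 202 and 231 bases in transcript order. The genes point towards each other, with 9947 bases between their 3′ ends and 0 other listed features between them. The second interval, which in this gene family holds most of the neurophysin, is 202 bases long in both genes and is known to be very similar in sequence between them. How reads matching more than one place were treated is not given in the sources used here, so counts of both genes are uncertain to that extent. Oxtr is listed on chromosome 4, minus strand, from 207703615 to 207716373, as 2 exonic intervals of 949 and 269 bases in transcript order, which together make a listed length of 1218 bases.

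The sequences before the starts of Oxt and Avp are shown because these neighbours varied together across the fetuses, as described further on. They are the 250 bases before the annotated start in RefSeq's rat assembly GRCr8, at chr3:138235504-138235753 (plus strand) for Oxt and chr3:138248523-138248772 (minus strand) for Avp, printed 5′ to 3′ along each gene. Capitals mark the motif CATAAA and the nuclear receptor motif AGGTCA or its reverse complement TGACCT.
Oxt: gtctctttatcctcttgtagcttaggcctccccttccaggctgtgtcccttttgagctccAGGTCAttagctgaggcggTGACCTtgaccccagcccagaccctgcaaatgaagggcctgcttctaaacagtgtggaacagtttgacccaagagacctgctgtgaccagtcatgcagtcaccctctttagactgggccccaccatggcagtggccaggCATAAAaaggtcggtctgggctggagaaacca
Avp: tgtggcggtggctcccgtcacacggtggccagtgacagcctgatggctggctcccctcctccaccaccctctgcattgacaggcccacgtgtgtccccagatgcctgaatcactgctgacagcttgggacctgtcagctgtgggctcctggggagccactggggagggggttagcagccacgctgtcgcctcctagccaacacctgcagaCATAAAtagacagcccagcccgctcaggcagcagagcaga
The letters CATAAA, which resemble a TATA box, begin 32 bases before the start in Oxt and 40 bases before it in Avp. On either strand, CATAAA occurs in 11.4% of 33465 RefSeq promoter windows of the same length. AGGTCA was found in Oxt only, at 190 bases before the start and, as TGACCT, at 171 bases before it. One or more AGGTCA matches occur in 14.1% of all windows and 2 or more in 1.27%. The E-box pattern CANNTG, which overlaps neither of these motifs here, matched at 1 position in Oxt and at 4 in Avp, and 65.5% of all windows hold it. The Oxtr window held CANNTG at 3 positions and neither AGGTCA nor CATAAA. The TATA box motif TATAAA was searched on both strands and matched in none of these 3 windows, where 12.9% of all windows hold it. The same search for TGACGTCA, the cyclic AMP response motif, also gave no match in these windows, and 1.59% of all windows hold it. CATAAA was chosen for the search after the sequences had been read. These matches describe letters and do not show that a factor binds.

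The peptide genes were detected at very uneven levels. Oxt had at least 1 count in 8 of 10 libraries and Avp in 10 of 10. Library totals ranged from 18555172 to 30404127 assigned counts, and 10 counts at the median depth correspond to 0.507 CPM, the deposited count scaled to a common library total. Oxt reached that level in 5 of 10 libraries, Avp in 7 of 10 and Oxtr in 10 of 10. All 3 genes passed the filter on low counts, which kept 14400 features and needs that level in 5 libraries, so Oxt passed it with no library to spare.

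In the oxytocin group, Oxt had 148, 5, 22, 9 and 0 counts in replicates 1 to 5. The deposited levels were 4.87, 0.201, 0.990, 0.458 and 0 CPM in the same order. Oxytocin replicate 1 held most of the group's 184 Oxt counts, while in oxytocin replicate 5 none of 18723390 counts fell on Oxt, which allows up to 0.160 CPM (3 counts, a one-sided limit; the two-sided 95% Poisson interval plotted reaches 0.197 CPM). In the saline group, Oxt had 60, 29, 2, 11 and 0 counts, or 3.05, 1.40, 0.101, 0.588 and 0 CPM. Saline replicate 5 likewise held none in 18555172 counts, which allows up to 0.162 CPM by the same limit (0.199 CPM by the two-sided interval). Each group thus held libraries with many Oxt reads and libraries with almost none.

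Avp had 314, 11, 48, 36 and 3 counts in oxytocin replicates 1 to 5, at 10.3, 0.442, 2.16, 1.83 and 0.160 CPM. In saline replicates 1 to 5 it had 187, 71, 6, 101 and 11 counts, at 9.50, 3.42, 0.304, 5.40 and 0.593 CPM. The highest Avp level in each group was in replicate 1, which also had the group's highest Oxt level. Both groups ran from under 1 CPM to over 9 CPM, and they overlapped along almost their whole range. The 95% Poisson interval of the highest saline value was 8.18 to 11.0 CPM and that of the lowest was 0.112 to 0.662 CPM, so counting error did not span the range. Such intervals, like the limits given for a count of 0, cover counting error only, because sequenced copies of a molecule are counted as separate reads when no molecular identifiers are used.

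Oxtr was low and varied less than the peptides. The oxytocin libraries had 102, 47, 51, 38 and 44 counts, at 3.35, 1.89, 2.30, 1.93 and 2.35 CPM. The saline libraries had 34, 38, 28, 31 and 48 counts, at 1.73, 1.83, 1.42, 1.66 and 2.59 CPM. Saline replicates 1 to 4 lay below every oxytocin library, whereas saline replicate 5 lay above every oxytocin library except replicate 1, so the groups overlapped.

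**Figure D1:**
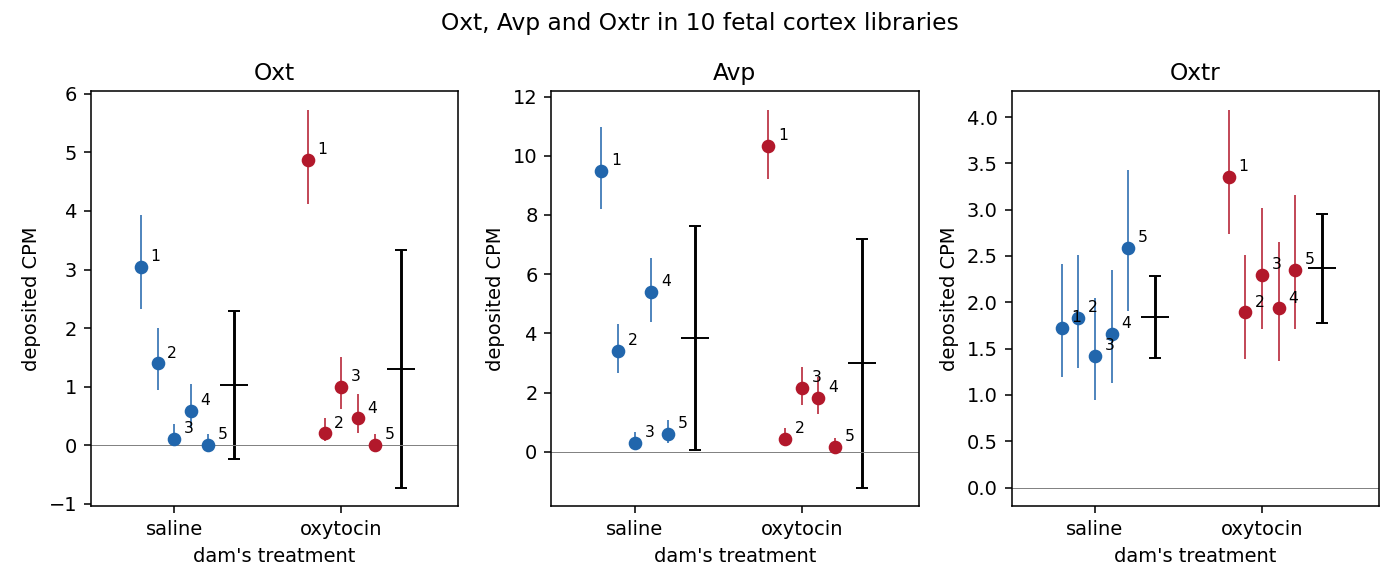
Deposited CPM of Oxt, Avp and Oxtr in each library (numbers are replicates), with the 95% Poisson interval of each count as a vertical line and the group mean ± SD (n = 5) in black. Oxt runs from 0 to 4.87 CPM and Avp from 0.160 to 10.3 CPM with both groups spread over the range, while Oxtr stays between 1.42 and 3.35 CPM.

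Per kilobase of listed length (RPKM, as deposited), Avp averaged 5.84 ± 6.49, Oxt 2.18 ± 2.99 and Oxtr 1.73 ± 0.463 (SD, n = 10 libraries of both groups). Avp exceeded Oxt in 10 of 10 libraries. Between the receptor and the peptides the order was not fixed, since Oxtr exceeded Oxt in 7 of 10 libraries and Avp exceeded Oxtr in 6 of 10. The medians over the libraries were 3.41 for Avp, 1.57 for Oxtr and 0.980 for Oxt, so Oxt and Oxtr changed places between mean and median. Only the order of Avp above Oxt was the same in every library, and it was not tested. It rested on few reads in oxytocin replicate 2 (11 against 5), oxytocin replicate 5 (3 against 0) and saline replicate 3 (6 against 2). By their means, neighbours in this order did not differ beyond their spread. By mean RPKM, 64.0% of all 26404 features lay below Avp, 55.5% below Oxt and 53.9% below Oxtr. Among the 14400 features that passed the filter, whose median was 11.5 RPKM, these shares were 34.1%, 18.5% and 15.7%. By their mean, all 3 genes thus lay below the median of the features that passed the filter, although Avp stood above it in replicate 1 of both groups, at 17.7 RPKM after oxytocin and 16.2 RPKM after saline. Within single libraries the share of features below the gene ran from 0% to 69.6% for Oxt, from 44.2% to 79.2% for Avp and from 51.8% to 56.8% for Oxtr. Without oxytocin replicate 1 the mean of Oxt fell to 1.41 RPKM, below the 1.61 RPKM of Oxtr without that library. A level per length for Oxtr rests on the listed 1218 bases, and reads from any part of its transcript outside them were not counted.

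The comparison of oxytocin with saline asked whether transcripts of the hormone, its sister peptide or its receptor differed in the fetal cortex after maternal treatment. By edgeR's quasi-likelihood test, with Benjamini-Hochberg adjustment over 14400 features, 0 of these 3 genes fell under an adjusted p of 0.05, and 0% of all tested features did. At an unadjusted p under 0.05 there were also 0 of 3, against 3.57% of all tested features. The limma voom fit likewise called 0 of 3, and DESeq2, which gave these genes no adjusted p, had unadjusted p-values of 0.809 for Oxt, 0.758 for Avp and 0.0854 for Oxtr. Groups without overlap were found for 0 of 3, against 0.701% of all tested features. The median log2 fold change was 0.40 over these 3 genes and -0.0031 over all tested features. The median of 3 is the value of Oxtr alone, with Oxt at 0.46 and Avp at -0.27, so it shows no shift of the genes as a set. Every p-value here measures the spread between single fetuses of different dams.

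For Oxt, the mean was 1.30 ± 2.03 CPM after oxytocin and 1.03 ± 1.26 CPM after saline (SD, n = 5 each). The log2 fold change of oxytocin over saline was 0.46 ± 0.97 (SE), and edgeR gave it an adjusted p of 0.9997. Its 95% interval ran from -1.63 to 2.56, that is from 0.323-fold to 5.89-fold, so the data were compatible with changes of either sign. The mean difference of 0.277 CPM gave p = 0.802 (exact two-sided permutation test, which cannot go below 0.0079 with 5 libraries a group). The direction rested on 1 library. Without oxytocin replicate 1 the log2 fold change was -1.27 (edgeR, adjusted p = 0.9987), and without saline replicate 1 it was 1.41.

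For Avp, the mean was 2.98 ± 4.19 CPM after oxytocin and 3.84 ± 3.80 CPM after saline (SD, n = 5 each). The log2 fold change was -0.27 ± 0.87 (SE), with a 95% interval from -2.15 to 1.60, and edgeR gave it an adjusted p of 0.9997. The difference of -0.858 CPM gave p = 0.698 (exact two-sided permutation test). Single libraries again set the value, which was -1.72 without oxytocin replicate 1 and 0.39 without saline replicate 1. Without oxytocin replicate 2 or oxytocin replicate 5 it was 0.0037 and 0.0030.

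For Oxtr, the mean was 2.36 ± 0.591 CPM after oxytocin and 1.84 ± 0.442 CPM after saline (SD, n = 5 each). The log2 fold change was 0.40 ± 0.20 (SE), with a 95% interval from -0.039 to 0.84, that is from 0.973-fold to 1.78-fold. In edgeR its p was 0.0708 before adjustment and 0.9997 after it, and 5.29% of all tested features had a smaller p. The difference of 0.521 CPM gave p = 0.167 (exact two-sided permutation test). The receptor's interval was far narrower than those of the peptides. Its value was positive in 10 of 10 fits that left out 1 library, and ranged from 0.22 without oxytocin replicate 1 to 0.55 without saline replicate 5. Without saline replicate 5 the groups no longer overlapped, and the exact two-sided permutation p for the CPM difference was 0.0317. Leaving out any other single library kept the overlap. The share of all features without overlap in that split was not computed. With saline replicate 5 left out, edgeR's p for Oxtr was 0.0168 before adjustment and 0.833 after it. In that fit 841 of 14469 tested features had an unadjusted p under 0.05, the most of the 10 fits that left out 1 library. The unadjusted edgeR p of Oxtr was also under 0.05 without oxytocin replicate 2, at 0.0457, where 510 of 14465 tested features were under it. For Oxtr this held in 2 of the 10 fits in all. Oxtr was not past the adjusted threshold with all libraries or in any of these 10 fits. The largest library total was 30404127 among the oxytocin libraries and 20776414 among those of saline, and the part of depth in the Oxtr values was not tested. In bulk tissue, fewer cells that express a gene and less RNA per cell cannot be told apart, for the receptor as for the peptides.

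**Figure D2:**
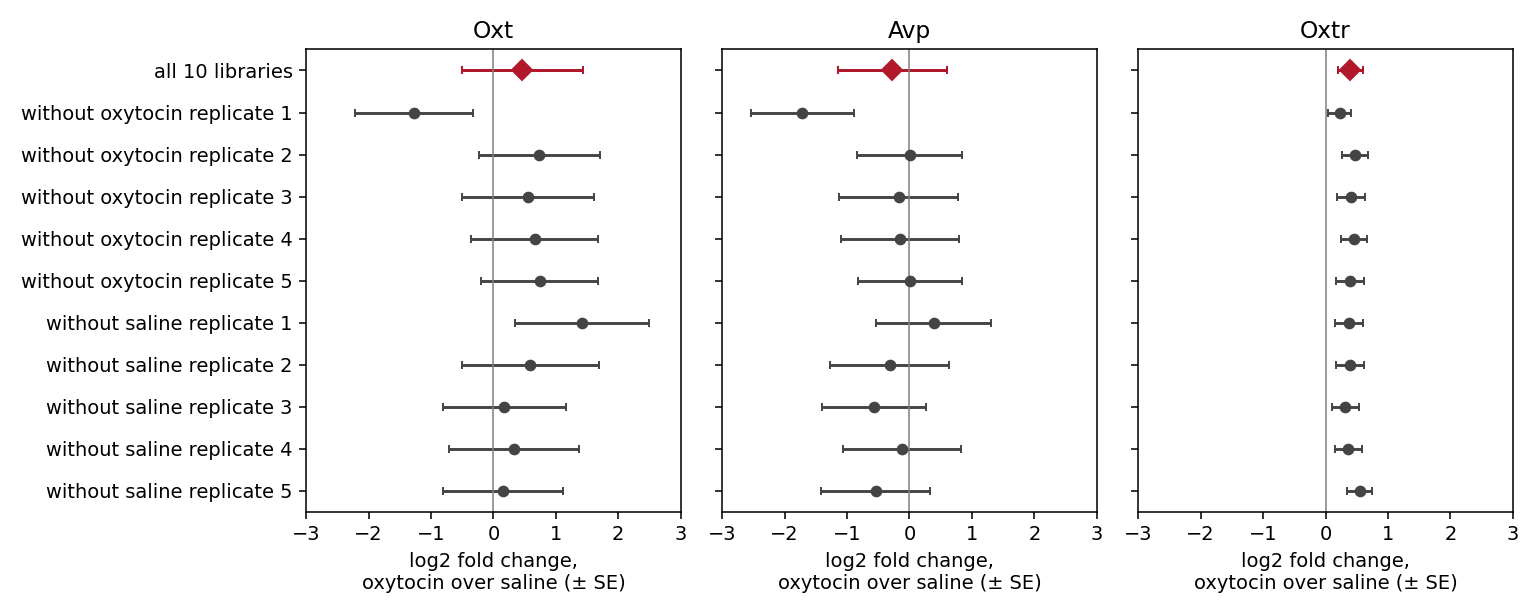
Log2 fold change (± SE) of oxytocin over saline from edgeR for Oxt, Avp and Oxtr, with all 10 libraries (red diamond) and with each library left out (grey points); the horizontal axis is the same in the 3 panels. The value for Oxt runs from -1.27 to 1.41 and that for Avp from -1.72 to 0.39, while that for Oxtr stays between 0.22 and 0.55.

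The feature of these data that sets the peptide genes apart is their spread between fetuses of one treatment. The within-group SD of log2 CPM was 2.10 for Oxt and 2.02 for Avp, against a median of 0.129 over the 14400 tested features. Only 5 tested features had a larger within-group SD than Oxt, and 10 a larger one than Avp. Low counts raise this SD, so the genes were also read beside features within 0.5 log2 units of their mean level. Of 492 features near Oxt the median SD was 0.443, and 1 exceeded it. Of 1004 near Avp the median was 0.299, and 3 exceeded it. Oxtr had a within-group SD of 0.309, larger than that of 87.0% of all tested features and close to the median of 0.277 over the 1052 features near its level, and 411 of those exceeded it.

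Counting error alone gives a chi-square of about 1 per degree of freedom for counts of 1 gene within groups, once library totals are allowed for. Between separate fetuses larger values are usual, and the median was 3.33 over the tested features, where it grows with the count. It was 2.99 for Oxtr, 50.5 for Oxt and 105 for Avp, against medians of 1.76, 1.48 and 1.704 over the features near the level of each. From edgeR's dispersion estimate for each gene, the biological coefficient of variation was 1.23 for Oxt, 0.991 for Avp and 0.192 for Oxtr. The quasi-likelihood test does not use these estimates directly. Only 3 tested features had a larger dispersion than Oxt and 7 a larger one than Avp, whereas 1359 of 14400 exceeded Oxtr.

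**Figure D3:**
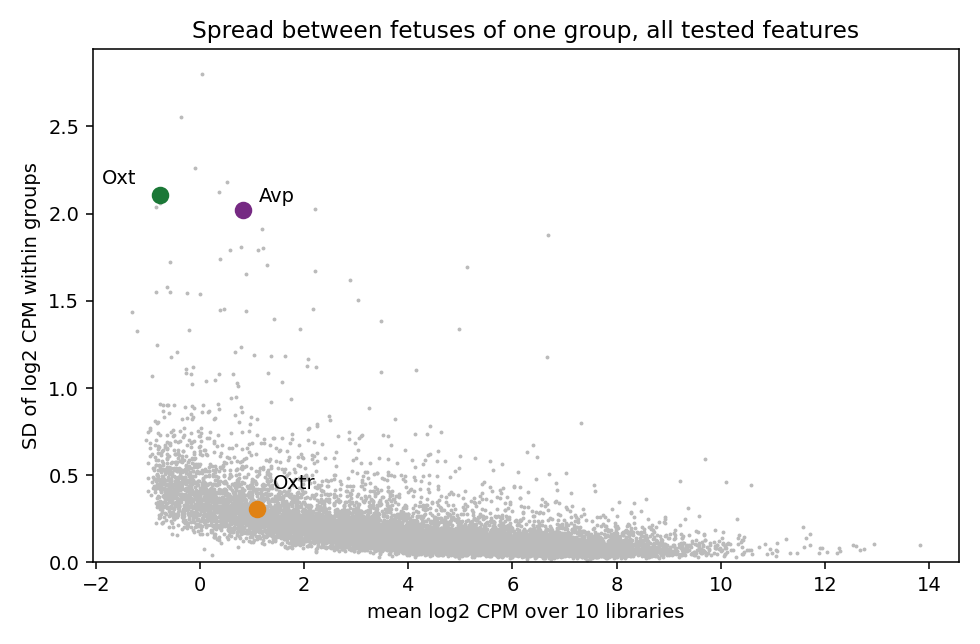
Mean log2 CPM over the 10 libraries (horizontal) against the SD of log2 CPM within groups (vertical) for 14400 tested features in grey, with Oxt, Avp and Oxtr marked. Oxt (2.10) and Avp (2.02) stand far above the bulk of features at their level, and Oxtr (0.309) lies within it.

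Oxt and Avp varied together from fetus to fetus, while no such relation was found for Oxtr. Across the 10 libraries Pearson's r of log2 CPM between Oxt and Avp was 0.925 (permutation p = 0.00036, adjusted p = 0.00108 over 3 relations) and Spearman's rho was 0.912 (permutation p = 0.00068, adjusted p = 0.00204). Farthest from the median of Oxt were oxytocin replicate 1 and, tied at 0 counts, replicate 5 of either group. Over 8 libraries r was 0.873 without oxytocin replicates 1 and 5, and 0.934 without oxytocin replicate 1 and saline replicate 5. After the group means were subtracted, r was 0.942. With only 5 libraries in a group, no r was computed within one. This relation was noticed in the values before it was tested, and the points share their library and its depth. The second intervals of both genes are very similar, and the part of reads matching both was not tested. The library total had an r of 0.554 with Oxt, 0.355 with Avp and 0.586 with Oxtr across the 10 libraries, and its part in these relations was not tested. For Oxtr, r was 0.151 with Oxt (permutation p = 0.683, adjusted p = 0.708) and 0.138 with Avp (permutation p = 0.708, adjusted p = 0.708). Spearman's rho was -0.049 with Oxt (permutation p = 0.899, adjusted p = 0.974) and 0.018 with Avp (permutation p = 0.974, adjusted p = 0.974). Without the 2 libraries farthest from the median, r was -0.23 with Oxt (-0.16 with the tied library left out instead) and 0.042 with Avp.

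**Figure D4:**
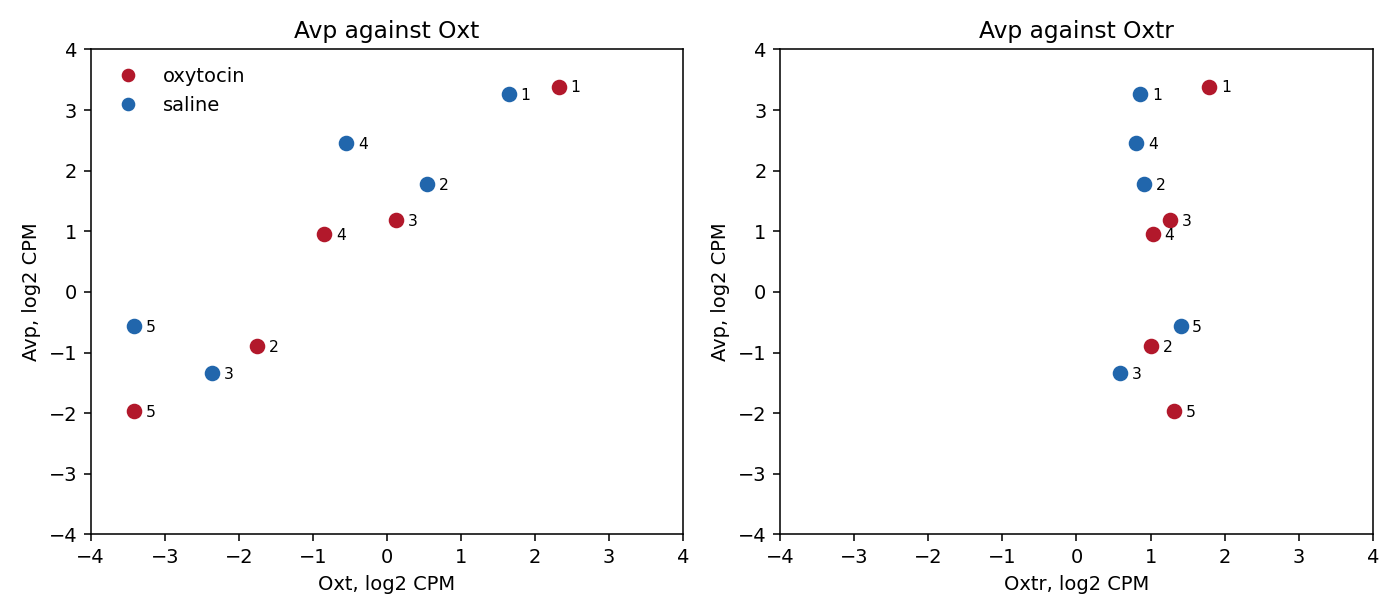
Log2 CPM of Avp against Oxt (left) and against Oxtr (right) in the 10 libraries, coloured by group and numbered by replicate; Oxt was at 0 counts in replicate 5 of both groups, which the log scale places at its lower end. Avp rises with Oxt (r = 0.925) with both groups interleaved, and shows little relation to Oxtr (r = 0.138).

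The balance of the peptides was given by the share of Avp among the reads of both. Avp held 68.0% in oxytocin replicate 1 (95% Clopper-Pearson interval 63.5% to 72.2% of 462 reads) and 75.7% in saline replicate 1 (69.9% to 80.9% of 247). Saline replicate 4 stood higher, at 90.2% (83.1% to 94.99% of 112). These intervals too cover counting error only, not reads that match both genes, and no test between single fetuses was made. Over the 8 libraries with at least 10 such reads the share was 77.8% ± 11.7 (SD, n = 8), from 68.0% to 100%. Oxytocin replicate 5 and saline replicate 3 had only 3 and 8 such reads, so no test between groups was made. Per length, the ratio of Avp to Oxt had a median of 2.49 and ran from 1.94 to 8.38 over the 8 libraries with an Oxt read.

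Genes around the peptide pair did not vary with such amplitude. Within 200 kb of Oxt and Avp the files list 13 other features, of which 11 passed the filter. Their within-group SD ran from 0.036 to 0.283, and their r with Oxt or Avp from -0.57 to 0.66. Their log2 fold changes ran from -0.18 to 0.045, and 0 of 11 passed 0.05 in edgeR, adjusted or not, beside 0% and 3.57% of all tested features, so with so few the count says nothing particular of them. Within 200 kb of Oxtr 2 features are listed, and neither passed the filter.

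Other features correlated with these genes across the libraries, and the closest of them had a smaller range. Among so many features some high r arise without any relation, and how many was not computed, so the likeness is a description. The files pair no identifier with a symbol, so the closest features are given by identifier. Most like Avp over the 10 libraries was ENSRNOG00000014373 (chromosome 1, r = 0.966), whose level ran from 0.48 to 1.999 log2 CPM. Most like Oxt was ENSRNOG00000004778 (chromosome 14, r = 0.951), from -0.65 to 0.82 log2 CPM. Most like Oxtr was ENSRNOG00000037835 (chromosome 9, r = 0.920), from 1.30 to 2.31 log2 CPM. The third closest feature had r of 0.955 for Avp, 0.932 for Oxt and 0.905 for Oxtr. Of the other 14399 tested features, 13 were more like Avp than Oxt was, and 5 were more like Oxt than Avp was, whereas 5564 were more like Oxt than Oxtr was.

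An r above 0.8 was reached by 330 features with Avp, 157 with Oxt and 62 with Oxtr. The lists of Avp and Oxt shared 93 features, which are 28.2% of the Avp list and 59.2% of the Oxt list. Leaving out the peptides themselves, 392 features were on either list. Their median SD of log2 CPM over the libraries was 0.226, against 0.128 for all tested features. Their median log2 fold change of oxytocin over saline was -0.021, and 0 of 392 had a p under 0.05 in edgeR, adjusted or not, beside 0% and 3.57% of all tested features. These features were picked for following the peptides, whose spread lies within the groups, so the last count is a description only.

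Which brain region or cell type the peptide reads came from was not tested. Marker genes of cortex, hypothalamus, blood and choroid plexus, and the other genes of the pathway such as the vasopressin receptors and the enzymes that process the precursors, are not analysed here, because the tables at hand pair none of their symbols with the files' identifiers. The tissue label could not be set against its markers for the same reason.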

How the data were processed

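RNA-seq was deposited for 10 libraries, 5 per group, 1 file each. Per the submitters' processing notes, the tools were bcl2fastq, STAR 2.0.4b, Subread and featureCounts 1.45, with build Rnor_5.0. Settings for strand and for reads that match several places are not given in the sources used here. The deposited counts are whole read counts per gene. Per the file headers and the values, the deposited CPM is the count over the library's total, scaled to the same sum in each library, and the deposited RPKM is that CPM per kilobase of the listed length. All libraries carry the same run name in their descriptions, and the labels give no batch.

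The 3 genes and all lists were chosen with earlier results of these data known. They were named by identifier and chromosome. RefSeq's gene table (GRCr8) holds 0 Ensembl identifiers, but it puts the genes on the same chromosomes, and its gene lengths for Oxt (841) and Avp (1979) equal the spans in the files. For Oxtr it has 17350 bases against a listed span of 12759. All 3 symbols matched a RefSeq promoter window, and motifs were counted in the 250 bases before the start.

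Counts were filtered with filterByExpr and scaled with TMM, and edgeR 4.0.16 (R 4.3.3) glmQLFit and glmQLFTest compared oxytocin with saline over all 10 libraries without covariates. SE is the log2 fold change over the square root of F. Log2 CPM uses TMM and a prior count of 2. CPM differences were tested by exact permutation, and correlations with 100000 permutations (SciPy 1.17.1). The named genes are the 3 genes and, for each, its closest features by Pearson's r, of which the closest is printed. Alternatives were DESeq2 1.42.0 and limma 3.58.1 voom, other scalings and filters, other scales of CPM, and each library left out. The edgeR script was tested on simulated data.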

Additional observations from a re-analysis of the deposited data

Results flagged for a closer look

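Oxytocin replicate 1 stood apart from the other 4 libraries of its group in deposited CPM for both peptide genes. Its Oxt level was 4.87 CPM, and the gap to the next library was 0.797 of the group's range, above Dixon's 95% critical value of 0.71. Its Avp level was 10.3 CPM, with a gap of 0.803 of the range. On the log2 CPM scale the same gaps were 0.382 and 0.412 of the range, below the critical value. Of 12 checks, over 3 genes, 2 groups and both scales, 2 exceeded the value; chance flags about 1 in 20 groups. This library was also the deepest, with 30404127 counts, and its Oxtr level of 3.35 CPM was the highest of the 10, with a gap of 0.686 of the range within the oxytocin group. Saline replicate 1, with 9.50 CPM of Avp and 3.05 CPM of Oxt, was of ordinary depth, at 19689446 counts. Without oxytocin replicate 1 the log2 fold changes were -1.27 for Oxt, -1.72 for Avp and 0.22 for Oxtr, with an adjusted p of 0.9987 for each in edgeR's quasi-likelihood test. The part of depth in these levels was not tested.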

How the results depend on the processing

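With all libraries, each log2 fold change kept its direction and stayed short of an adjusted p of 0.05 under every alternative that gave one. Values ran from 0.34 to 0.47 for Oxt over 6 alternatives, from -0.46 to -0.27 for Avp over 7 and from 0.37 to 0.41 for Oxtr over 7, with edgeR and limma adjusted p from 0.940 to 0.9999. DESeq2 gave no adjusted p for the 3 genes, and the filter of at least 1 CPM in 5 libraries removed Oxt. DESeq2 called 7 features, with an adjustment over 5575, where edgeR called 0 of 14400; 514 had an unadjusted p under 0.05 in edgeR, and 498 in DESeq2, counted over every feature it gave a p. Leaving out each library left 0 features called, with 420 to 841 at that unadjusted p, the most without saline replicate 5. It gave -1.27 to 1.41 for Oxt, negative only without oxytocin replicate 1. It gave -1.72 to 0.39 for Avp, positive without oxytocin replicate 2 (0.0037), oxytocin replicate 5 (0.0030) and saline replicate 1 (0.386), and 0.22 to 0.55 for Oxtr. The CPM difference then ran from -0.614 to 0.782 for Oxt, from -2.69 to 0.556 for Avp and from 0.274 to 0.707 for Oxtr, where it passed 0.05 only without saline replicate 5 (exact permutation p = 0.0317). The causes were not tested. By mean CPM in place of RPKM, 49.1% of features lay below Oxt, 55.1% below Avp and 52.2% below Oxtr, so Oxt and Oxtr changed order. By mean RPKM without each library, chosen after seeing the data, the shares ran from 52.6% to 56.1%, 61.2% to 65.1% and 53.5% to 54.1%. The Avp share ran from 74.6% to 79.2%. The Oxt values rest on 0 to 148 counts per library. No paired analysis was possible because the labels carry no replicate numbers and those used here are names in accession order.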
